A study of Mus musculus with 24 samples.

Results

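The interaction of genotype and lipopolysaccharide (LPS) was measured in mouse bone marrow-derived macrophages (BMDMs), as the *Olfml3* knockout effect with LPS minus the knockout effect with PBS. It rested on 12 of the 24 RNA-seq libraries of the series, 3 in each of 4 groups. The groups were wild type with PBS, *Olfml3* knockout with PBS, wild type with LPS and *Olfml3* knockout with LPS. A sample's group is that of its title, which its library name shares. The genotype tag gave another genotype for 6 of the 12. LPS, the endotoxin of Gram-negative bacteria, was given at 100 ng/mL for 4 h. The cells were cultured from the marrow of male C57BL/6 mice of 8 weeks and grown for 6 days in L929-conditioned medium, and the knockout mice carried a germline *Olfml3* knockout made with CRISPR-Cas9, which is not limited to macrophages. Nothing in the labels says which libraries came from separate mice or cultures, so p values measure the spread between these libraries.

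LPS binds TLR4 on the macrophage surface and starts a pair of signalling arms. MyD88 leads to NF-kappaB and to inflammatory cytokines such as IL-1beta, and TRIF leads to IRF3 and to interferon beta. Secreted interferon beta acts back on its receptor, and a complex that holds STAT2 and IRF9 then switches on the interferon-stimulated antiviral genes. Resting macrophages carry a low tonic level of the same genes. An interaction asks whether the loss of a gene shifts expression by the same fold before and after that switch.

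The targeted gene was low in every knockout library. *Olfml3*, a secreted olfactomedin-family glycoprotein, stood at 0.483, 0.417 and 0.516 in the wild-type PBS libraries and at 0.0233, 0.00546 and 0.00703 in the knockout PBS libraries. These and all levels below are FPKM rescaled by TMM, the scaling factor of each library that sets the bulk of genes level between libraries. With LPS it was 0.322, 0.339 and 0.343 in wild type and 0.00917, 0 and 0 in knockout, which is 102 counts against 1. The knockout effect on it was called with PBS and with LPS, and its interaction was not (log2 -0.43 ± 0.75 SE, limma-voom adjusted p = 0.779).

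Library totals ran from 17121240 to 22873094 counts. TMM factors were 1.263 to 1.269 in wild type with PBS, 1.302 to 1.305 in knockout with PBS, 0.7403 to 0.7415 in wild type with LPS and 0.8166 to 0.8214 in knockout with LPS, so the scaling moved with treatment and, with LPS, with genotype. The 7 macrophage markers were all expressed, summing to 11600 to 16300 scaled FPKM over the 12 libraries. Of the 6 T cell markers *Cd3d*, *Cd3e* and *Cd3g* were at 0 in all 12 libraries, and the T cell sum of 14.8 to 17.2 in wild type with LPS and 4.46 to 4.81 in knockout with LPS was almost all *Lck*, at 14.8 to 17.2 and 4.44 to 4.77. The sums of the NK cell, B cell, neutrophil, dendritic cell, mast cell, erythroid and fibroblast marker lists were each at most 12 in any library, and their part in the results was not tested. Replicates of wild type with LPS differed from each other more than those of the other groups, with a chi-square per degree of freedom of 4.755 to 10.38 against 1.757 to 2.678, and replicate 1 of that group was in the largest differences.

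Among 14057 genes tested, the interaction was called for 759 by limma-voom at an adjusted p under 0.05 and a change of at least 1.5-fold. It was positive for 416 genes (2.96% of those tested) and negative for 343 (2.44%). The median interaction over all genes was 0.02 on the log2 scale. At an unadjusted p under 0.05 there were 4085 of the 14057 in either direction, to set beside the list counts below. Without replicate 1 of wild type with LPS there were 375 positive and 376 negative calls. With library totals in place of TMM the median was 0.12 and 659 of 902 calls were positive (73.1% against 54.8%), so the split between the signs depends on the scaling. In 31 of the 759 genes some group held at most 3 counts, and the fitted value of such a gene depends on the small count added before the logarithm. The other 728 were 397 positive and 331 negative. In bulk RNA, fewer cells of a type and less RNA per cell cannot be told apart.

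**Figure D1:**
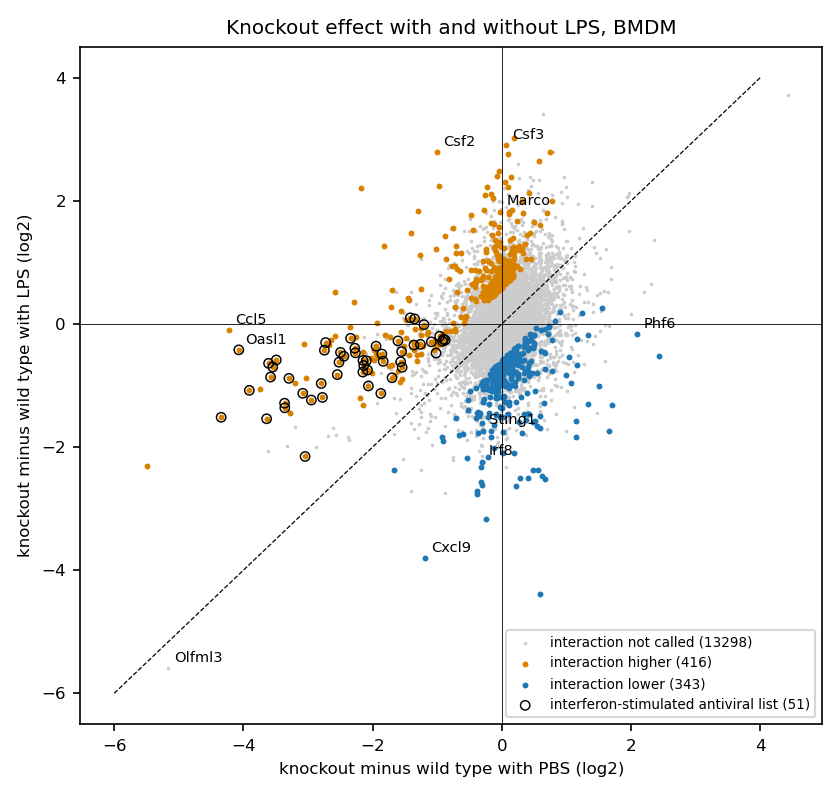
Knockout effect with PBS (horizontal, log2) against knockout effect with LPS (vertical, log2) for the 14057 tested genes of the 12 BMDM libraries, 1 point per gene, with the dashed line marking equal effects. The 51 circled interferon-stimulated antiviral genes lie to the left of 0 and above the line, Irf8, Sting1 and Cxcl9 lie below it, and Olfml3 lies near it.

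Both knockout effects were read beside the interaction to see from which side it came. With PBS the knockout was higher for 255 genes (1.81%) and lower for 268 (1.91%), and with LPS it was higher for 607 (4.32%) and lower for 640 (4.55%). With library totals 1104 of 1522 calls with LPS were higher (72.5% against 48.7%). Of the 416 positive interactions, 220 were higher in the knockout with LPS alone, 81 lower in the knockout with PBS alone, 42 lower in both, 67 called in neither, 4 higher in both and 2 lower with PBS and higher with LPS. The 343 negative interactions were 263 genes lower in the knockout with LPS alone, 60 called in neither, 15 higher with PBS alone and 5 lower in both. LPS itself raised 3532 genes (25.1%) and lowered 4347 (30.9%) in wild type, and raised 3364 (23.9%) and lowered 4162 (29.6%) in knockout, and with library totals the share of LPS calls that were higher went from 44.8% to 18.7% in wild type and from 44.7% to 19.9% in knockout. Of the positive interactions 198 were genes that LPS lowered in wild type and 164 were genes that it raised. Of the negative ones LPS raised 232 in wild type and lowered 41.

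The interferon-stimulated antiviral genes had more positive calls than any other of the 26 pathway lists. All 51 listed genes were tested, and the interaction was positive for 50 of them and negative for 0, with a median of 1.56 on the log2 scale beside 0.02 for all genes. The remaining gene, *Samd9l*, had a log2 interaction of 0.55 ± 0.06 SE, under the fold threshold. At an unadjusted p under 0.05 the interaction was positive for 51 and negative for 0, and edgeR and DESeq2 each called 50 and 0. In the PBS cells all 51 were called lower in the knockout, beside 1.91% of all genes tested. No library of the knockout reached the wild type in any of the 51. With LPS 27 of the 51 were called lower, beside 4.55% of all genes, and 24 were not. With LPS the libraries of the genotypes stayed apart for 50, counting either direction, and the wild-type mean was the higher for 49 of the 51. How many of all tested genes were separated in this way was not counted. The count of positive calls ran from 48 to 50 when any library was left out. Because the list was chosen with earlier results of these data known, its count is a description of these genes. The list holds near-identical family members (the *Ifi200*, *Oas1*, *Ifit3* and *Phf11* genes) between which reads may be split, and whether counting used strand is not given in the sources used here.

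To show what these genes carry upstream, the promoter letters of 4 of them are printed here, from 250 bases before to 50 after the transcription start (RefSeq, GRCm38.p6, gene strand, 5′ to 3′). Capitals mark the interferon-stimulated response element GAAANNGAAA, the site that this complex and other IRF proteins bind, on either strand. *Isg15* encodes a ubiquitin-like modifier, *Ifit1* an RNA-binding inhibitor of viral translation, *Oas3* an enzyme that makes 2-5A in answer to double-stranded RNA, and *Rsad2* the antiviral enzyme viperin. *Isg15* lies at chr4:156200769-156201068 on the minus strand with 3 overlapping matches, the first starting 78 bases before the start site. *Ifit1* lies at chr19:34640639-34640938 on the plus strand with 2 matches on the opposite strand. *Oas3* lies at chr5:120777610-120777909 on the minus strand with 1 match, 75 bases before the start, and *Rsad2* at chr12:26456403-26456702 on the minus strand with 1, on the opposite strand, 120 bases before it. *Isg15*, *Ifit1* and *Rsad2* were chosen after their values were seen.
Isg15: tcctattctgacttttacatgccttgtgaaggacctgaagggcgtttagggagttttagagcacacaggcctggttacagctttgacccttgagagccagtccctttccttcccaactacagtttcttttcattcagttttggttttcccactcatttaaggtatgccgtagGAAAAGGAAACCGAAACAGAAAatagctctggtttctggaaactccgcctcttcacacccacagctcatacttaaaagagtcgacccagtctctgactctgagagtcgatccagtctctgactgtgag
Ifit1: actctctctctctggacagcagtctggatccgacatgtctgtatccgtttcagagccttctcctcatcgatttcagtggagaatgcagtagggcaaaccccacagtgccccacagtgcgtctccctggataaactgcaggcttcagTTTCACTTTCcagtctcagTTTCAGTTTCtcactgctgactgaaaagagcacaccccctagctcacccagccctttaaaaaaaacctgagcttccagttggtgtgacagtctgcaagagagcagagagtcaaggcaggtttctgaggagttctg
Oas3: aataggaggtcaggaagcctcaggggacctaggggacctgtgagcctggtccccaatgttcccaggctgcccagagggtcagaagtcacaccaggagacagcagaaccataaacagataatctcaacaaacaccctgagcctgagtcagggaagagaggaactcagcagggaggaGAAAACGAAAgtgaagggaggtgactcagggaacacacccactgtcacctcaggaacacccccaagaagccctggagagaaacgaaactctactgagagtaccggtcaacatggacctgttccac
Rsad2: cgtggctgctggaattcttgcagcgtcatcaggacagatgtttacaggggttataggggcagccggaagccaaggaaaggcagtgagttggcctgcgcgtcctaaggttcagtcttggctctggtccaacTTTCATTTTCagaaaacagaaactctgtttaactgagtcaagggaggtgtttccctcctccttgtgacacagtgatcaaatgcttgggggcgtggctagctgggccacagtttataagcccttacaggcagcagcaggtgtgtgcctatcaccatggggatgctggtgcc

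The motif was counted on both strands in the same window of every tested gene with a listed promoter, taking a gene as holding it when any of its starts did. It was present in 24 of the 40 interferon-list genes with a promoter (60.0%) and in 406 of 9971 tested genes (4.07%). Of the genes with a positive interaction that were also lower in the knockout with PBS it was in 40 of 92 (43.5%), and of those outside the interferon list in 16 of 53 (30.2%). That remainder may still hold interferon-induced genes, since the GTPases most known from interferon gamma form a separate list. Of the positive interactions without a PBS decrease it was in 7 of 224 (3.12%), and of the negative ones in 10 of 260 (3.85%), both close to the share of all tested genes. A match is a stretch of letters and not a measured binding site.

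The levels of single genes show where the 4 groups stood. *Oas3* was at 14.8, 17.9 and 14.7 in wild type with PBS and at 1.27, 1.43 and 1.23 in knockout with PBS. With LPS it was at 95.7, 96.2 and 99.6 in wild type and at 53.9, 52.4 and 54.1 in knockout. The genotypes did not overlap under either treatment, and a 12.1-fold gap narrowed to 1.82-fold (log2 interaction 2.72 ± 0.11 SE, adjusted p = 5.54e-16). LPS raised the gene 6.15-fold in wild type and 40.8-fold in knockout.

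*Irf7*, the transcription factor that amplifies interferon alpha production, followed the same order. Its PBS levels were 17.3, 21.8 and 16.8 in wild type and 1.57, 1.64 and 1.51 in knockout, and its LPS levels were 271, 250 and 257 against 164, 154 and 162. Its interaction was 2.85 ± 0.14 SE (adjusted p = 5.23e-14), with the knockout lower in every pair of groups.

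*Isg15* and *Rsad2* came closer still. *Isg15* read 20.8, 22.8 and 19.0 against 2.86, 3.78 and 2.71 with PBS, and 1137, 951 and 982 against 835, 808 and 843 with LPS. Its wild-type excess was 6.70-fold with PBS and 1.24-fold with LPS, and the decrease with LPS was under the 1.5-fold threshold. *Rsad2* read 25.6, 29.9 and 24.7 against 5.24, 6.14 and 5.20 with PBS, and 4531, 4572 and 4592 against 3355, 3314 and 3220 with LPS (interaction 1.80 ± 0.07 SE, adjusted p = 1.66e-15). Both genes were lower in the knockout with no overlap under both treatments.

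*Ifit1* stood at 11.3, 13.6 and 10.6 in wild type and 2.21, 2.65 and 2.45 in knockout with PBS, and at 1685, 1623 and 1641 against 1263, 1270 and 1233 with LPS. Its wild-type excess went from 4.87-fold to 1.31-fold (interaction 1.88 ± 0.11 SE, adjusted p = 2.22e-12). Other genes named by rule in this list were *Oasl1* (3.65 ± 0.43 SE), *Oasl2* (2.97 ± 0.12), *Rtp4* (2.91 ± 0.15), *Ifi44* (2.83 ± 0.26) and *Ifi213* (2.83 ± 0.34), with interactions on the log2 scale. *Oasl1* and *Oasl2* are relatives of the 2-5A synthetases. *Oasl1* rested on 17 counts in the knockout PBS group, the fewest of any listed gene in any group, and *Ifi213* is one of the near-identical *Ifi200* genes.

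*Stat2*, a signal carrier of the interferon receptors, had a higher mean in knockout than in wild type with LPS. It read 16.6, 18.6 and 16.1 against 6.52, 6.81 and 6.77 with PBS, and 98.3, 102 and 105 against 108, 108 and 108 with LPS. The knockout was lower with PBS and lay above wild type with LPS, with no overlap under either treatment. Its interaction was 1.43 ± 0.06 SE (adjusted p = 2.81e-15), and its difference with LPS, 0.08 ± 0.03 SE (adjusted p = 0.0544), was not called. *Stat2* was chosen after its values were seen.

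**Figure D2:**
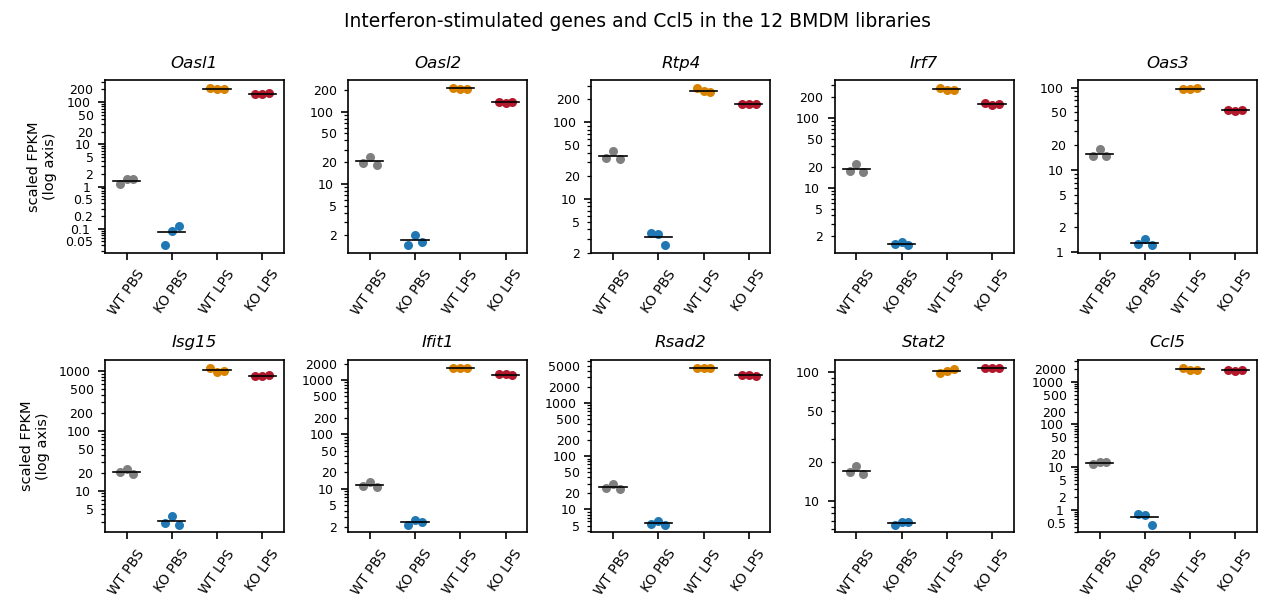
Scaled FPKM (log axis) of 9 interferon-stimulated genes and Ccl5 in the 12 BMDM libraries, 1 point per library with a line at the mean of each group of 3. In each panel the knockout PBS points are the lowest, and the LPS points of the genotypes lie close together.

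The narrowing was a narrowing of folds and not of absolute differences. Over the 51 listed genes the median wild-type to knockout fold was 4.498 with PBS and 1.513 with LPS, and the median LPS fold was 17.66 in wild type and 53.91 in knockout. The gap in scaled FPKM, wild type minus knockout, was larger with LPS than with PBS in 47 of the 51. For *Rsad2* the gap was 21.2 with PBS and 1268 with LPS, and for *Oas3* it was 14.5 and 43.7. On the scale of levels the knockout difference of these 47 genes was thus larger with LPS, and on the log2 scale the difference of 50 of the 51 was smaller by a called interaction.

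*Ccl5*, a chemokine for T cells and monocytes that is also induced through IRF3, had the largest positive interaction of the genes named by rule. It read 11.99, 13.41 and 12.97 in wild type and 0.787, 0.770 and 0.451 in knockout with PBS. With LPS it read 2135, 1883 and 1865 against 1863, 1803 and 1835. The 19.1-fold wild-type excess with PBS was 1.07-fold with LPS (interaction 4.13 ± 0.37 SE, adjusted p = 3.62e-09), the LPS difference was not called, and the call was lost under 1 of 22 other settings.

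Many genes most known from interferon gamma, the immunity-related and guanylate-binding GTPases and their neighbours, were called lower in the knockout. Of 25 tested, 15 were called lower with PBS and 15 with LPS, beside 1.91% and 4.55% of all genes. The interaction was positive for 6 and negative for 2, with a median of 0.03. The motif GAAANNGAAA was in 11 of the 12 with a promoter (91.7%). *Gm4951*, an immunity-related GTPase, fell from a mean of 2.30 to 0.235 with PBS and from 96.7 to 35.6 with LPS (interaction 1.83 ± 0.29 SE, adjusted p = 3.07e-05). *F830016B08Rik*, another of them, had 70 counts in wild type and 0 in knockout with PBS and 886 against 176 with LPS, and its interaction was called in 13 of 22 other settings. *Gm12250*, of the same family, had means of 11.3 and 2.83 with PBS and 454 and 304 with LPS (interaction 1.41 ± 0.12 SE).

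*Cxcl9*, the chemokine that draws CXCR3-bearing T cells, went the other way. It was near 0 with PBS, at 0.153, 0.0600 and 0.0838 in wild type and 0.119, 0.0223 and 0.0144 in knockout. With LPS it read 358, 324 and 330 in wild type and 27.4, 22.5 and 22.8 in knockout, a 13.9-fold deficit with no overlap. The interaction was -2.61 ± 0.81 SE (adjusted p = 0.0236), with 25 and 13 counts behind the PBS groups, and was not called under 4 of 22 other settings.

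The list of the upper interferon pathway held no positive calls. Among 21 tested ligands, receptors and signalling genes the interaction was positive for 0 and negative for 3, with a median of -0.02. The knockout was called higher for 1 and lower for 0 with PBS. With LPS it was higher for 0 and lower for 6, beside 4.55% of all genes lower. *Irf7* and *Stat2*, described above, also act in interferon signalling but stand outside this list, and both had positive calls. At an unadjusted p under 0.05 limma-voom had 4 positive and 7 negative interactions, and edgeR and DESeq2 each called 0 and 3. *Irf8*, the factor that sets monocyte and dendritic cell fate and cooperates with other IRFs at interferon targets, read 25.3, 25.9 and 26.3 in wild type and 21.3, 20.6 and 20.9 in knockout with PBS. With LPS it read 241, 223 and 229 in wild type and 52.0, 45.9 and 49.2 in knockout. LPS raised it 8.92-fold in wild type and 2.34-fold in knockout, so the knockout deficit grew from 1.24-fold to 4.71-fold (interaction -1.93 ± 0.05 SE, adjusted p = 5.04e-19).

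*Sting1*, the adaptor that turns cytosolic DNA signals into interferon beta, rose with LPS in wild type and not in knockout. It read 11.1, 10.6 and 10.8 against 8.84, 8.62 and 9.02 with PBS, and 23.5, 22.2 and 22.7 against 7.40, 6.52 and 6.59 with LPS. Wild type rose 2.10-fold with LPS and the knockout mean was 0.775 times its PBS level, under the threshold (interaction -1.44 ± 0.08 SE, adjusted p = 1.28e-12). *Socs3*, a feedback inhibitor of cytokine receptors, was the remaining called gene, at -0.76 ± 0.20 SE, from a higher PBS level in the knockout (0.932 against 0.530) and means of 369 and 355 with LPS.

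The *Irf8* promoter is shown because the gene carries the most significant negative interaction among the listed genes together with a different motif. Capitals mark GAS, the element TTCNNNGAA that STAT dimers bind, in the window of its first listed start, chr8:120736108-120736407 on the plus strand (RefSeq, GRCm38.p6). The window held 2 GAS matches and no GAAANNGAAA, and that of its second start held neither. GAS was in 821 of the 9971 tested genes (8.23%) and in 29 of the 260 negative interactions (11.2%).
Irf8: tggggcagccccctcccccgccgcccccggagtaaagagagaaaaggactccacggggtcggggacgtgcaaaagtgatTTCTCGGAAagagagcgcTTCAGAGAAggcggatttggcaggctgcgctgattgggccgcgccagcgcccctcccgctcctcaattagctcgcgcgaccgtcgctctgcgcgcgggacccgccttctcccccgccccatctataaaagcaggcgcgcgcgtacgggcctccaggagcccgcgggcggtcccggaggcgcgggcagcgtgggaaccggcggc

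Some LPS-induced cytokines were higher in the knockout with LPS and others were lower. Of 23 inflammatory cytokines tested the interaction was positive for 6 and negative for 1, with a median of 0.27. With LPS 5 were called higher in the knockout and 3 lower, beside 4.32% and 4.55% of all genes. The median knockout effect of the list with LPS was 0.08 on the log2 scale. The cytokines named here were all on the higher side. *Il1b*, the inflammasome-processed pyrogen, stood at 1.13, 1.04 and 0.814 in wild type and 1.23, 1.01 and 1.09 in knockout with PBS. With LPS it stood at 1004, 984 and 942 against 1977, 1995 and 1930. The genotypes overlapped with PBS and differed 2.02-fold with LPS with no overlap (knockout minus wild type 1.01 ± 0.02 SE on the log2 scale, interaction 0.86 ± 0.21 SE, adjusted p = 0.00459).

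The colony-stimulating factor genes were near 0 with PBS. *Csf3*, which drives neutrophil output, had 0 counts in all 6 PBS libraries and read 0.426, 0.348 and 0.214 in wild type and 2.24, 2.58 and 2.82 in knockout with LPS, from 23 and 180 counts. *Csf2*, which supports macrophages and granulocytes, had 2 counts and 0 counts with PBS and read 0.301, 0.461 and 0.377 against 2.40, 3.22 and 2.85 with LPS, from 15 and 114 counts. For both the LPS libraries of the genotypes lay far apart, while the PBS levels are at or under the floor of 3 counts over the group and give no fold. *Osm* (1.23 ± 0.19 SE) and *Inhba* (1.10 ± 0.35 SE) were the other named members.

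Chemokines were split as well. The interaction was positive for 5 of 22 and negative for 1, with a median of 0.26. The neutrophil attractants *Cxcl1* and *Cxcl3* were higher in the knockout with LPS, *Cxcl1* at a mean of 18.9 ± 1.6 against 6.48 ± 0.57 (SD, n = 3) and *Cxcl3* at 15.8 ± 0.2 against 5.64 ± 0.06, with at most 11 counts in any PBS group. *Ccl2*, the monocyte attractant, read 86.9, 95.7 and 87.6 against 112, 122 and 122 with PBS and 1049, 958 and 931 against 1502, 1483 and 1448 with LPS. It was higher in the knockout under both treatments with no overlap, and its interaction of 0.20 ± 0.06 SE (adjusted p = 0.0216) was under the fold threshold. *Saa3*, an acute-phase protein, was among the 2 genes with opposite knockout effects, at means of 0.465 against 0.203 with PBS and 97.6 against 213 with LPS (interaction 2.39 ± 0.38 SE, adjusted p = 3.28e-05).

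Receptor-proximal genes held 1 call and feedback genes more. Of 16 LPS receptor and adaptor genes 1 had a positive interaction, *Irak3*, the inhibitory kinase-like protein that restrains MyD88 signalling. It read 4.85, 5.35 and 4.83 against 4.63, 4.52 and 4.21 with PBS, and 8.23, 9.18 and 8.86 against 17.7, 17.1 and 17.7 with LPS (interaction 1.16 ± 0.09 SE, adjusted p = 1.86e-10). Among 22 NF-kappaB subunits and feedback inhibitors 1 was positive and 5 negative, with the lowest median of the 26 pathway lists at -0.21, and 5 were positive and 13 negative at an unadjusted p under 0.05. Those named were *Dusp4* (0.69 ± 0.11 SE), *Dusp5* (-1.07 ± 0.20 SE), *Cish* (-1.07 ± 0.37 SE) and *Socs3*. The *Cish* call was lost under 13 of 22 other settings, 10 of them with 1 library left out. *Dusp4* and *Dusp5* are phosphatases that switch off MAP kinases. Of 20 immediate-early factors *Myc* was positive (0.89 ± 0.12 SE) and *Jun* (-0.74 ± 0.07 SE) and *Klf4* (-0.62 ± 0.17 SE) were negative.

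**Figure D3:**
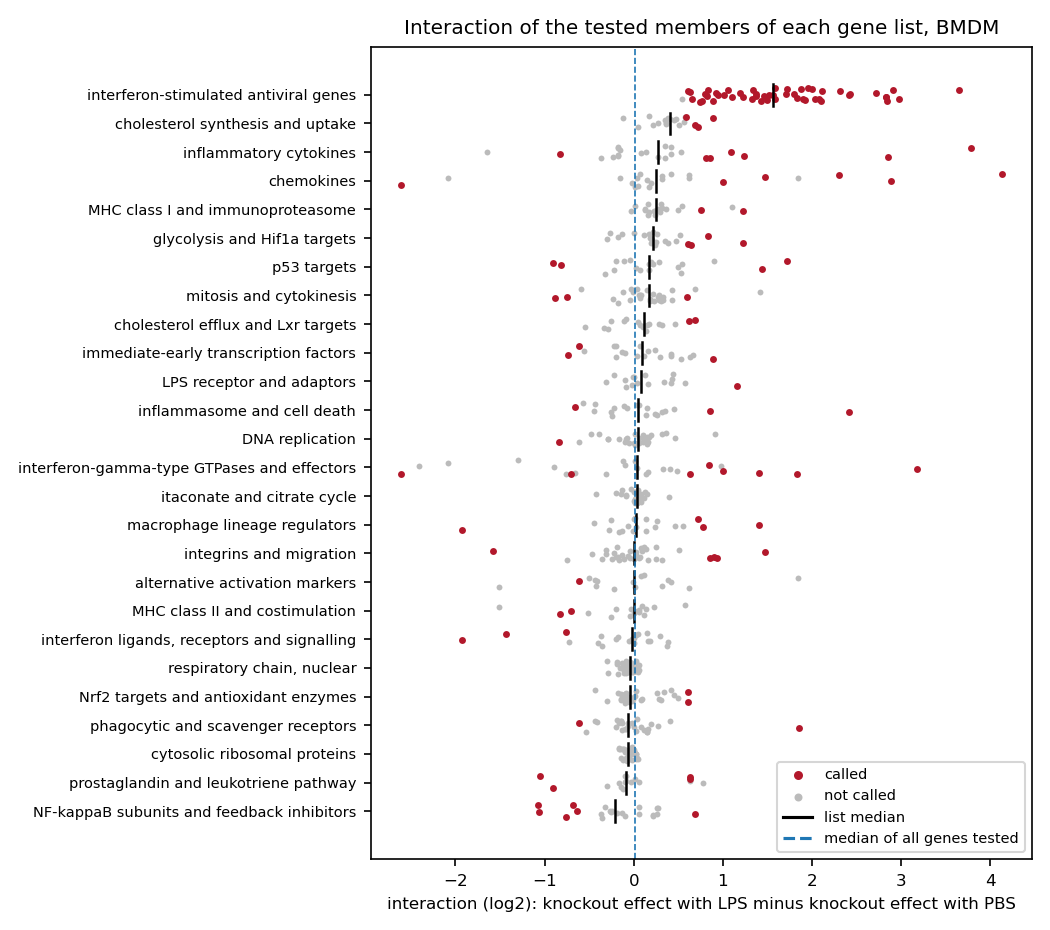
Interaction (log2) of every tested member of the 26 pathway lists, 1 point per gene with called genes in red, a bar at each list's median and a dashed line at the median of all 14057 genes, 0.02. The interferon-stimulated antiviral genes lie between 0.55 and 3.65, and the medians of the other 25 lists between -0.21 and 0.41.

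Metabolic lists were mostly without calls, except for glycolysis and sterol synthesis. Of 23 glycolysis and Hif1a target genes 4 were positive and 0 negative by limma-voom, edgeR and DESeq2 alike, with a median of 0.22, and at an unadjusted p under 0.05 there were 18 and 4. *Pfkl*, the liver-type phosphofructokinase, read 5.64, 6.38 and 6.07 against 6.29, 6.41 and 6.74 with PBS and 8.75, 8.17 and 8.73 against 16.9, 15.6 and 16.7 with LPS (interaction 0.83 ± 0.07 SE, adjusted p = 2.69e-09). *Slc16a3*, the lactate exporter, had 0.61 ± 0.08 SE, *Bnip3* had 0.65 ± 0.08 SE and *Egln3* had 1.23 ± 0.42 SE, a call lost under 11 of 21 other settings. With LPS these 4 genes were also called higher in the knockout, and their libraries did not overlap there, as such a call makes likely.

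Cholesterol synthesis and uptake held 4 positive and 0 negative calls among 19, with a median of 0.41. With LPS 7 were called higher in the knockout, beside 4.32% of all genes. Without the fold threshold 16 of the 19 were positive, beside 1364 positive of all 14057 genes. At an unadjusted p under 0.05 there were 17 positive and 1 negative, beside 4085 of all genes in either direction. By edgeR 4 and 0 were called, and by DESeq2 3 and 0. *Sqle*, which makes squalene epoxide, read 12.01, 12.54 and 12.88 against 14.0, 14.3 and 13.9 with PBS and 8.98, 9.57 and 9.96 against 17.7, 17.8 and 17.4 with LPS. The knockout was above wild type in each treatment with no overlap and more so with LPS (interaction 0.72 ± 0.06 SE, adjusted p = 1.93e-09). *Lss* and *Stard4* had interactions of 0.88 ± 0.12 and 0.69 ± 0.08 SE. Of 18 efflux and Lxr targets *Scd2* (0.69 ± 0.05 SE) and *Abca1* (0.63 ± 0.07 SE) were positive and 0 were negative by limma-voom, edgeR and DESeq2, with 7 and 6 at an unadjusted p under 0.05.

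The itaconate and citrate cycle list of 27, the nuclear respiratory chain list of 36 and the ribosomal list of 34 held 0 calls in either direction by limma-voom, edgeR and DESeq2. At an unadjusted p under 0.05 limma-voom had 2 positive and 3 negative, 0 and 5, and 0 and 6 in them. *Acod1*, which encodes the itaconate-making enzyme IRG1, read 0.945, 1.10 and 1.01 against 1.07, 1.28 and 1.55 with PBS, and 2517, 2541 and 2612 against 2393, 2373 and 2364 with LPS. LPS raised it 2512-fold in wild type and 1827-fold in knockout, and its interaction was -0.43 ± 0.17 SE (adjusted p = 0.0760). The most expressed members of the respiratory and ribosomal lists, *Atp5a1* and *Rplp1*, had interactions of -0.06 ± 0.04 SE and -0.15 ± 0.07 SE. *Aifm1*, the mitochondrial flavoprotein, had an interaction of 0.15 ± 0.10 SE (adjusted p = 0.385). Of 33 Nrf2 targets and antioxidant enzymes *Nfe2l2* (0.61 ± 0.05 SE) and *Hmox1* (0.61 ± 0.07 SE) were positive and 0 were negative by limma-voom, edgeR and DESeq2, with 7 and 9 at an unadjusted p under 0.05.

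Genes of the cell surface and of cell movement were divided. Of 28 phagocytic and scavenger receptors 1 was positive and 1 negative. *Marco*, a scavenger receptor for bacteria, read 0.460, 0.751 and 0.694 against 0.654, 0.524 and 0.675 with PBS and 2.31, 3.77 and 3.48 against 10.9, 11.4 and 10.9 with LPS, so that the genotypes overlapped with PBS and stood apart with LPS (interaction 1.85 ± 0.31 SE, adjusted p = 6.22e-05). *Mertk*, the receptor for apoptotic cells, was negative, with means of 35.4 and 32.6 with PBS and 81.4 and 49.0 with LPS (-0.61 ± 0.06 SE). Of 35 integrin and migration genes 4 were positive and 1 negative, among them the gelatinase *Mmp9* (1.47 ± 0.26 SE), *Cx3cr1* (0.93 ± 0.26 SE) and *Vcam1* (0.90 ± 0.17 SE).

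Antigen presentation and cell death genes had few calls. Of 20 class I and immunoproteasome genes 2 were positive, *H2-T24* (1.22 ± 0.10 SE) and *Nlrc5* (0.76 ± 0.10 SE). In the knockout 11 of the 20 were called lower with PBS and 6 with LPS, beside 1.91% and 4.55% of all genes. Of 17 class II and costimulation genes *Cd83* (-0.71 ± 0.06 SE) and *Tnfsf9* (-0.83 ± 0.22 SE) were negative. Of 20 inflammasome and cell death genes *Zbp1* (2.41 ± 0.19 SE) and *Il1b* were positive and *Ripk1* (-0.66 ± 0.05 SE) was negative. Of 17 prostaglandin and leukotriene genes 2 were positive and 2 negative, and *Ptger4*, a receptor for prostaglandin E, fell from a mean of 19.3 in wild type to 9.79 in knockout with LPS, with PBS means of 3.07 and 2.92. *Ptgir* (0.63 ± 0.14 SE) and *Ptges2* (0.63 ± 0.16 SE) were positive and *Hpgd* (-1.05 ± 0.35 SE, a call lost under 10 of 22 other settings) was negative. With library totals as the scaling the negative calls of *Mertk*, *Klf4*, *Ripk1*, *Cish* and *Hpgd* were lost, with values of -0.51, -0.51, -0.55, -0.97 and -0.95. Of 16 alternative activation markers *Klf4* alone was called, and it was negative.

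Most mitotic genes were higher in the knockout under both treatments. Of 30 mitosis and cytokinesis genes 28 were called higher in the knockout with PBS and 26 with LPS. Over all genes tested these shares were 1.81% and 4.32%. The list medians were 0.79 and 0.96 on the log2 scale, while the interaction was positive for 1 and negative for 2. *Tpx2*, a spindle assembly factor, was an exception, at 8.98, 8.24 and 9.67 against 14.1, 14.4 and 15.6 with PBS and 15.2, 14.4 and 15.2 against 13.5, 13.9 and 12.3 with LPS (interaction -0.88 ± 0.08 SE, adjusted p = 5.45e-09). *Cenpe* was negative (-0.75 ± 0.10 SE) and *Ndc80* positive (0.60 ± 0.19 SE, a call lost under 9 of 22 other settings). Of 30 DNA replication genes *Rfc3* alone had a called interaction (-0.84 ± 0.10 SE), and the knockout was called higher for 3 and lower for 0 with PBS and higher for 6 and lower for 1 with LPS.

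Among p53 targets 2 of 20 were positive and 2 negative. *Sesn1*, a stress-induced regulator of mTORC1, read 65.4, 64.3 and 66.0 against 70.9, 70.5 and 69.3 with PBS and 0.785, 1.02 and 0.773 against 2.63, 3.37 and 3.18 with LPS. LPS lowered it strongly in both genotypes and less so in the knockout (interaction 1.72 ± 0.16 SE, adjusted p = 6.56e-09). *Plk3* was positive (1.44 ± 0.38 SE), and the death genes *Bbc3* (-0.91 ± 0.18 SE) and *Fas* (-0.81 ± 0.18 SE) were negative.

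Regulators of macrophage lineage gave 3 positive and 1 negative call among 20. *Bhlhe41*, a repressor found in tissue macrophages, read 7.87, 8.46 and 8.05 against 6.82, 7.03 and 6.82 with PBS and 1.54, 1.72 and 1.45 against 3.59, 3.36 and 3.62 with LPS, crossing from below to above wild type (interaction 1.40 ± 0.10 SE, adjusted p = 6.11e-11). *Cebpa* had 0.72 ± 0.22 SE. The negative call was *Irf8*.

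**Figure D4:**
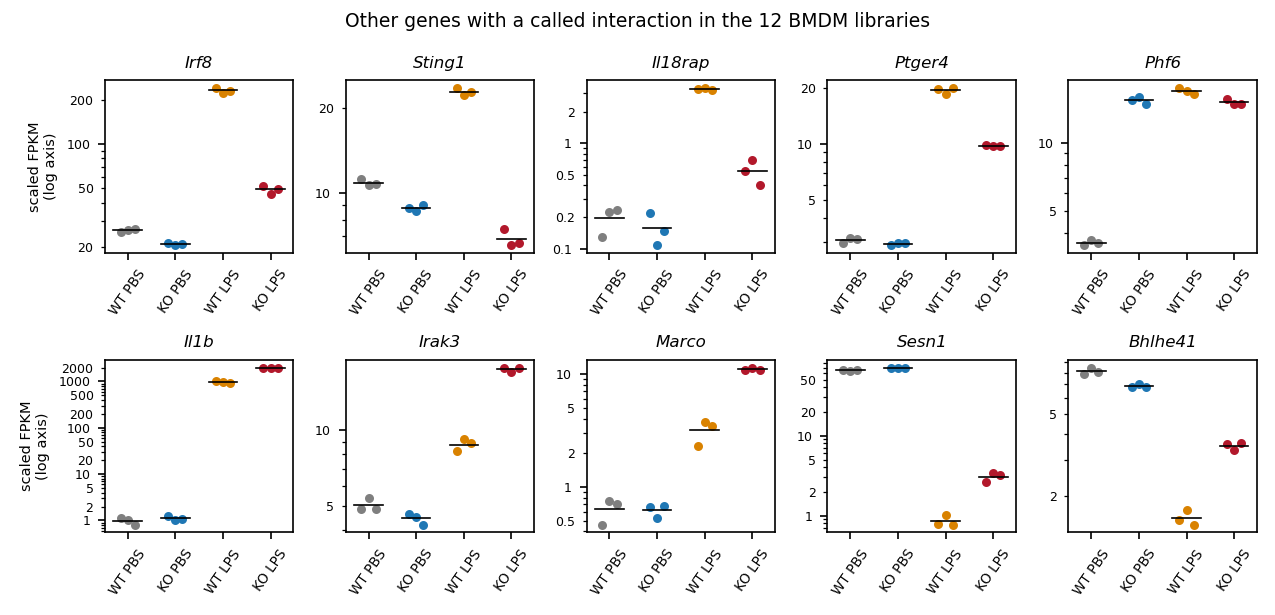
Scaled FPKM (log axis) of 10 other genes with a called interaction in the 12 BMDM libraries, 1 point per library with a line at the mean of each group of 3. Irf8, Sting1, Il18rap and Ptger4 are lower in the knockout with LPS, Il1b, Irak3, Marco, Sesn1 and Bhlhe41 are higher, and Phf6 is low in wild type with PBS alone.

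*Phf6*, a chromatin-associated zinc finger protein, had its own pattern. It read 3.55, 3.72 and 3.63 in wild type with PBS and 15.5, 16.1 and 14.9 in knockout with PBS. With LPS it read 17.6, 17.1 and 16.4 in wild type and 15.61, 14.96 and 14.97 in knockout. The wild-type PBS group stood alone, and the interaction was -2.26 ± 0.06 SE (adjusted p = 5.04e-19).

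Most of the other large negative interactions were of genes near 0 with PBS. *Il18rap*, a subunit of the interleukin-18 receptor, read 3.26, 3.35 and 3.19 in wild type and 0.544, 0.692 and 0.400 in knockout with LPS, with overlapping PBS levels of at most 0.235 (interaction -2.25 ± 0.34 SE, adjusted p = 1.65e-05). *Gpr18* (-2.08 ± 0.48 SE), *Serpina3g* (-2.20 ± 0.73 SE), *Lhx2* (-2.09 ± 0.63 SE), *Serpinb2* (-2.04 ± 0.48 SE), *Gm43203* (-2.29 ± 0.76 SE) and *Upp1* (-2.72 ± 0.93 SE) rested on 5 to 28 counts in each PBS group. The call was lost under 9 of 22 other settings for *Upp1*, 9 of 21 for *Gm43203*, 6 of 22 for *Serpina3g* and 4 of 22 for *Lhx2*. *Asap3* had 4 and 8 counts with PBS and *Clcf1* had 2 and 12, so their fitted values of -2.98 and -2.96 are not firm folds. With LPS *Asap3* was at 10.5 ± 0.6 in wild type and 2.94 ± 0.20 in knockout (SD, n = 3). *Trav14-3*, a T cell receptor segment with close copies, was lowered by LPS in both genotypes, from means of 6.61 to 3.90 in wild type and 9.19 to 1.36 in knockout (-2.07 ± 0.42 SE), while the T cell receptor partners *Cd3d*, *Cd3e* and *Cd3g* were at 0.

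At higher counts, genes chosen after their values were seen showed the same direction with no called knockout effect with PBS. *Zyx*, a focal adhesion protein, read 11.8, 12.8 and 11.7 against 12.2, 11.5 and 12.1 with PBS and 102, 96.6 and 99.2 against 39.2, 37.8 and 39.5 with LPS. *Bach1*, a haem-sensing repressor, read 21.0, 20.4 and 20.5 against 19.8, 19.0 and 19.1 with PBS and 68.3, 68.8 and 72.8 against 25.5, 25.2 and 25.4 with LPS. Their interactions were -1.33 ± 0.06 SE (adjusted p = 2.02e-15) and -1.37 ± 0.05 SE (adjusted p = 7.91e-17). *Ski*, a repressor of TGF-beta signalling, had a mean 1.49-fold lower with LPS than with PBS in wild type, under the threshold, and fell 4.32-fold in knockout (-1.53 ± 0.07 SE).

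Some interactions were called where neither knockout effect was. The 3 largest by rule were *Fpr1*, the formyl peptide receptor, *Sh3d21* and *Col27a1*, with interactions of 2.25 ± 0.70, 1.82 ± 0.53 and 1.82 ± 0.53 SE and 9, 13 and 8 counts in the knockout PBS group. Without replicate 2 of knockout with PBS *Fpr1* was at 0.99, and the calls were lost under 4, 4 and 3 of 22 other settings. Their means with LPS were 5.05 and 7.42, 1.28 and 1.94, and 3.34 and 4.35 in wild type and knockout.

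RAW264.7 cells, a mouse macrophage line, had the same 4 groups, and their interaction was fitted together with that of BMDMs over 24 libraries. The line's knockout cells were isolated as single-cell clones, and how many clones the libraries came from is not given. *Olfml3* RNA was higher there in the libraries labelled knockout, with PBS means of 0.126 in wild type and 0.666 in those libraries. With LPS these means were 0.159 and 14.5. RNA level alone does not show whether the gene was disrupted, so directions in RAW264.7 refer to the label. Of 15565 genes tested the RAW264.7 interaction was positive for 289 (1.86%) and negative for 457 (2.94%). BMDM minus RAW264.7, the difference was positive for 424 genes (2.72%) and negative for 272 (1.75%).

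The interferon-stimulated antiviral list was positive for 20 and negative for 3 of 51 in RAW264.7, with a median of 0.31 beside 1.55 in BMDMs, and the difference between the cell types was called for 16, all larger in BMDMs. Without replicate 1 of the RAW264.7 PBS libraries labelled knockout, which stood apart, the difference was called for 1115 genes in place of 696. *Oas3* was positive in both cell types (1.46 ± 0.14 SE in RAW264.7) and larger in BMDMs. *Isg15* was 2.44 ± 0.47 SE in RAW264.7 and 2.42 ± 0.18 SE in BMDMs, with a difference of -0.02 ± 0.50 SE that was not called. *Irf8* was -0.29 ± 0.08 SE in RAW264.7 and -1.94 ± 0.07 SE in BMDMs, and this difference was called (-1.66 ± 0.11 SE, adjusted p = 1.69e-09).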

How the data were processed

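Poly(A) RNA-seq was done on 12 BMDM and 12 RAW264.7 libraries, 3 per group. The authors deposited, for each cell type, 1 table with gene counts and FPKM side by side for 56691 genes, 2639 of them without a symbol. The submitters' notes name the genome build mm10, but for the aligner and the counter no name was given in the sources used here, and coordinates in the tables did not match GRCm38, so none is printed from them. The deposited FPKM are scaled to the library total, since counts divided by gene length and library total gave them within 1% in 99.5% of 123096 values over 50 counts. Such values move when a few genes take a large share of a library, as LPS-induced genes do, so levels are FPKM rescaled by TMM.

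Deposited counts were filtered by filterByExpr with a count minimum of 10, scaled by TMM (edgeR 4.0.16) and fitted by limma 3.58.1 with voom weights in R 4.3.3, with 1 mean per group. The interaction was knockout minus wild type with LPS, minus the same with PBS. P values are adjusted by Benjamini-Hochberg over all genes tested, and a gene was called at an adjusted p under 0.05 and a fold of at least 1.5. The fit was tested on simulated data. The comparison with RAW264.7 was fitted over all 24 libraries in the same way. Chi-square values between replicates compared their counts over genes with the count noise alone, and no pair of replicates was within it.

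Genes named by rule were the 12 called genes with the largest interaction in each direction at a mean of at least 1 in some group, up to 4 called members per pathway list (where none was called, the most expressed member), 3 per class of knockout effects, and *Olfml3*, *Acod1*, *Aifm1* and *Ccl2*. A few genes that the rule took, or that stand in the lists, are counted but not reported here by name. The interaction, the gene lists and the named genes were chosen with earlier results of these data known. Alternatives were other scalings, filters, thresholds and weights, edgeR's quasi-likelihood test, DESeq2 1.42.0, limma on log2(FPKM + 0.1), a replicate block, and leaving out each library.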

Additional observations from a re-analysis of the deposited data

Results flagged for a closer look

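RAW264.7 cells received the same treatments, and for 35 of the 89 genes named by rule the interaction differed between the cell types by a test of the difference itself (limma-voom over 24 libraries, Benjamini-Hochberg adjusted, BMDM minus RAW264.7, log2). Over all 15565 genes tested the difference was called for 696. Most of the 89 genes were named by their BMDM interaction, which is 1 side of this difference, so the count of 35 is a description of them. Directions in RAW264.7 refer to the labels, since *Olfml3* was higher there in the libraries labelled knockout. Its own interaction differed by -4.67 ± 0.87 SE (adjusted p = 0.00134).

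For 6 genes the interaction was called positive in BMDMs and negative in RAW264.7 as labelled (*Lhx2* had the reverse). Turning the RAW264.7 genotype labels would reverse the sign of every interaction there, also where the cell types shared a sign, as for *Oas3*. Whether the labels are turned was not tested. *Csf2* differed by 9.21 ± 1.06 SE (adjusted p = 3.81e-06) and *Csf3* by 8.25 ± 1.07 SE (adjusted p = 2.19e-05), with RAW264.7 interactions of -5.43 and -5.41. With LPS the RAW264.7 means of *Csf2* were 47.2 scaled FPKM in wild type and 0.764 in the libraries labelled knockout, and those of *Csf3* were 242 (wild type) and 7.62. With PBS these means were 0.0477 and 0.0180 for *Csf2* and 0.0249 and 0.0518 for *Csf3*. The PBS levels of both genes were near 0 in BMDMs too, so their differences are not firm folds. *Mmp9* differed by 4.96 ± 0.79 SE (RAW264.7 interaction -3.50), *Osm* by 3.08 ± 0.29 SE (RAW264.7 interaction -1.85), *Gm12250* by 5.70 ± 0.82 SE (RAW264.7 interaction -4.30) and *Ptgir* by 1.49 ± 0.30 SE (RAW264.7 interaction -0.87). The RAW264.7 PBS means of *Mmp9* (0.02074 in wild type, 0.01255 labelled knockout) and *Gm12250* (0.05763 and 0.107) were near 0 as well. The acute-phase gene *Saa3* differed by 3.01 ± 0.76 SE, with a RAW264.7 interaction that was not called.

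Of the 51 listed antiviral genes 16 were called more positive in BMDMs, and 3 of these were named by rule. *Oasl1* differed by 3.36 ± 0.42 SE (adjusted p = 1.20e-05), *Ifi213* by 3.01 ± 0.34 SE (adjusted p = 2.48e-06) and *Oas3* by 1.25 ± 0.19 SE (adjusted p = 0.000137). Their RAW264.7 interactions were 0.27, -0.19 and 1.46.

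*Acod1*, whose interaction was not called in BMDMs, had one of 1.86 in RAW264.7, and the difference was -2.30 ± 0.33 SE (adjusted p = 6.06e-05). Its RAW264.7 means were 2.11 and 0.525 with PBS and 1895 and 1649 with LPS, in wild type and in the libraries labelled knockout.

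Other named genes with a more positive interaction in BMDMs came from the metabolic, Nrf2, p53, prostaglandin, macrophage lineage and migration lists. In each of these lists most members had no called difference. The differences were 1.15 for *Bnip3*, 1.05 for *Scd2*, 0.78 for *Pfkl*, 0.61 for *Lss*, 0.99 for *Nfe2l2*, 1.39 for *Sesn1* and 1.04 for *Ptges2*. The difference was 1.49 for *Plk3*, 1.41 for *Bhlhe41* and 1.41 for *Cx3cr1*.

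The remaining genes were less positive or more negative in BMDMs. *Phf6* differed by -2.20 ± 0.20 SE (adjusted p = 2.18e-07) and stood at means of 7.96 and 10.0 with PBS and 6.52 and 7.74 with LPS in RAW264.7. *Irf8* differed by -1.66 ± 0.11 SE (adjusted p = 1.69e-09) and *Il18rap* by -2.04 ± 0.38 SE (adjusted p = 0.00126). *Serpinb2* differed by -3.84 ± 0.76 SE (adjusted p = 0.00255), *Gm43203* by -4.63 ± 1.31 SE (adjusted p = 0.0388) and *Lhx2* by -5.33 ± 1.07 SE (adjusted p = 0.00282), each with a group near 0 in RAW264.7. The differences were -0.85 for *Tpx2*, -0.92 for *Cd83*, -0.99 for *Ptger4*, -1.13 for *Dusp4*, -1.43 for *Bbc3* and -1.89 for *Tnfsf9*.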

How the results depend on the processing

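The 759 interaction calls of limma-voom with TMM numbered 762 with median-ratio scaling, 902 with library totals, 798 by edgeR, 750 by DESeq2, 786 on log2(FPKM + 0.1), 698 without a filter, 669 with a stricter one and 792 with quality weights. Positive calls were 659 with library totals, and 511 on log2(FPKM + 0.1), or 65% against 54.8%. Without the fold threshold there were 2607 calls (1364 positive, 1243 negative), with 2431 for the knockout effect with PBS and 4685 with LPS. Leaving out 1 library gave 686 to 764 calls, 373 to 418 positive and 289 to 376 negative, with 457 to 573 for the knockout effect with PBS, 1176 to 1250 with LPS, 7807 to 8037 for the LPS response in wild type and 7426 to 7707 in knockout. The interferon-stimulated antiviral list held 44 positive calls without a filter to 51 with library totals. The 696 differences between cell types were 1090 with quality weights and 596 to 1115 when 1 library was left out, lowest without replicate 2 of BMDM knockout with LPS. Same-numbered libraries showed little shared deviation (correlations -0.0165 to 0.0292, 0 of 18 pairs over 0.1). As 7 of 12 libraries were closest to their own number, these values cannot exclude a pairing by number. With a replicate block the interaction had 821 calls (454 positive, 367 negative). Of 89 named genes 83 were called, 47 of them under each of 22 settings. The interaction of *Olfml3* was 0.83 on log2(FPKM + 0.1), a call with reversed sign (adjusted p = 0.00400), and 0.09 without replicate 1 of knockout with PBS, not called. That of *Atp5a1*, not called in any setting, was 0.04 with library totals and on log2(FPKM + 0.1). The knockout groups of *Olfml3* held 6 counts with PBS and 1 with LPS. The cause of these shifts was not tested. With 3 libraries a group, interactions of genes near 0 with PBS are the least precise.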
